A study of Mus musculus with 4 samples.

Results

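The sirtuins are a family of 7 enzymes, Sirt1 to Sirt7, and their RNA was followed here in mouse fetal oocytes whose mothers ate a normal diet (ND) or one high in fat (HFD). The members were the 7 rows of the count tables whose Ensembl identifiers GENCODE names Sirt1 to Sirt7, out of 55401 genes in all. Each was read in every library, as the count scaled to a common library total (CPM), and compared between the diets. The rows were picked by gene name and not by their values, but the family was chosen with earlier results of these data known.

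Sirtuins remove acetyl and other acyl groups from lysines, or transfer ADP-ribose, and they consume NAD+ in each reaction, which ties them to the metabolic state of the cell. Sirt1, Sirt6 and Sirt7 act mainly in the nucleus and the nucleolus, Sirt2 mainly in the cytoplasm, and Sirt3, Sirt4 and Sirt5 in mitochondria. In oocytes the family is known for roles in spindle assembly, redox control and chromatin.

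Female ICR mice were kept on ND or HFD for 4 months and then mated with normal males, and the oocytes of their E18.5 fetuses were sorted with an SSEA-1 antibody. The labels call the sorted cells primordial germ cells of the ovary. Every sample pooled oocytes of several fetuses, its RNA was amplified by SMART-Seq2, and there were 2 samples from ND mothers and 2 from HFD mothers. The groups differ in the mothers' diet alone, as far as the labels say. Nothing in the sources used here says whether the 2 pools of a diet came from separate litters, so p-values measure the spread between 2 pools per diet, and with 2 against 2 an exact permutation test could not go below p = 0.333.

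Total counts ran from 5723605 to 8223255 per library, and 3 counts, taken as the detection floor, corresponded to 0.365 to 0.524 CPM. A background limit was set in every library from 1135 olfactory receptor genes, as the 99th percentile of their reads per kilobase of exon, and it lay between 7.44 and 12.5 reads per kilobase. Of 12 germ cell markers, 11 and 10 were above background in ND replicates 1 and 2, and 9 and 8 in HFD replicates 1 and 2. Their summed CPM was 2297 and 6998 in ND and 3886 and 2228 in HFD, and single markers were uneven. Dazl had 14247 and 29465 counts in ND and 2926 and 49 in HFD, and Dnd1 had 19556 in ND replicate 2 and 10 to 26 elsewhere. Markers of other cell types also varied between the libraries. The summed CPM of 6 blood markers was 1973 in ND replicate 1 and between 1.41 and 10.8 elsewhere, and that of 9 stroma markers ran from 69.0 to 2843 in ND and from 2222 to 7700 in HFD. For 10 pregranulosa markers it was 36.0 and 410 in ND and 19.0 and 2085 in HFD, and for 6 macrophage markers between 9.85 and 40.2 over the libraries. For 6 endothelial markers it was 701 in HFD replicate 1, of which 681 was Kdr alone, and between 24.6 and 72.6 elsewhere. In pooled cells, fewer cells of a type and less RNA per cell cannot be told apart.

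All 7 enzymes share a catalytic core that opens with a glycine-rich loop binding NAD+. The 30 coding bases of that loop are shown because they tell how alike the members are where the family is most conserved. They were read from the GRCm38 genome on the coding strand of GENCODE M21 transcripts, and capitals mark the 8 bases that are identical in all 7 genes.
Sirt1: GGaGCtGGggTttctgtctcctgtgggaTt
Sirt2: GGaGCcGGaaTctccacgtccgcgggtaTc
Sirt3: GGgGCcGGcaTcagcacacccagtggcaTc
Sirt4: GGcGCgGGgaTctccaccgagtccggcaTc
Sirt5: GGgGCtGGcgTtagtgcggagagtggggTt
Sirt6: GGcGCcGGcaTcagcaccgcctctggcaTc
Sirt7: GGcGCtGGaaTcagcacagcagcttctaTc

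The closest pair in this window was Sirt3 and Sirt6, with 25 of 30 bases identical, and the most distant pairs were Sirt1 with Sirt7 and Sirt2 with Sirt5, with 12 each. The window lies within 1 exon of Sirt3 (exon 2, chr7:140877968-140877997, minus strand), Sirt4 (exon 2, chr5:115482908-115482937, minus strand), Sirt5 (exon 3, chr13:43371888-43371917, plus strand) and Sirt6 (exon 2, chr10:81626501-81626530, minus strand). It crosses an intron in Sirt1 (exons 3 and 4, chr10:63331877-63335644, minus strand), Sirt2 (exons 5 and 6, chr7:28776881-28777006, plus strand) and Sirt7 (exons 3 and 4, chr11:120622200-120624507, minus strand). Over the annotated transcripts, 0 stretches of 50 bases were shared between any pair of sirtuins. Stretches of this length were shared with other genes for 14.2% of Sirt5, 10.6% of Sirt3, 1.44% of Sirt7, 1.01% of Sirt1 and 0.209% of Sirt2, and for 0% of Sirt4 and Sirt6. How the counting treated reads that align to several places is not given in the sources used here, so the counts of Sirt5 and Sirt3 are uncertain in those stretches.

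The family as a whole was carried by few values. Its summed level was 841 CPM in ND replicate 1 and 51.1 CPM in ND replicate 2, against 284 CPM in HFD replicate 1 and 55.0 CPM in HFD replicate 2. The ND and HFD ranges overlapped. Per length of exon, Sirt1 made up 88.2% of the family's reads in ND replicate 1 and Sirt2 93.1% in HFD replicate 1. In the other two libraries Sirt1 also held the largest share, 43.1% in ND replicate 2 and 27.1% in HFD replicate 2.

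**Figure D1:**
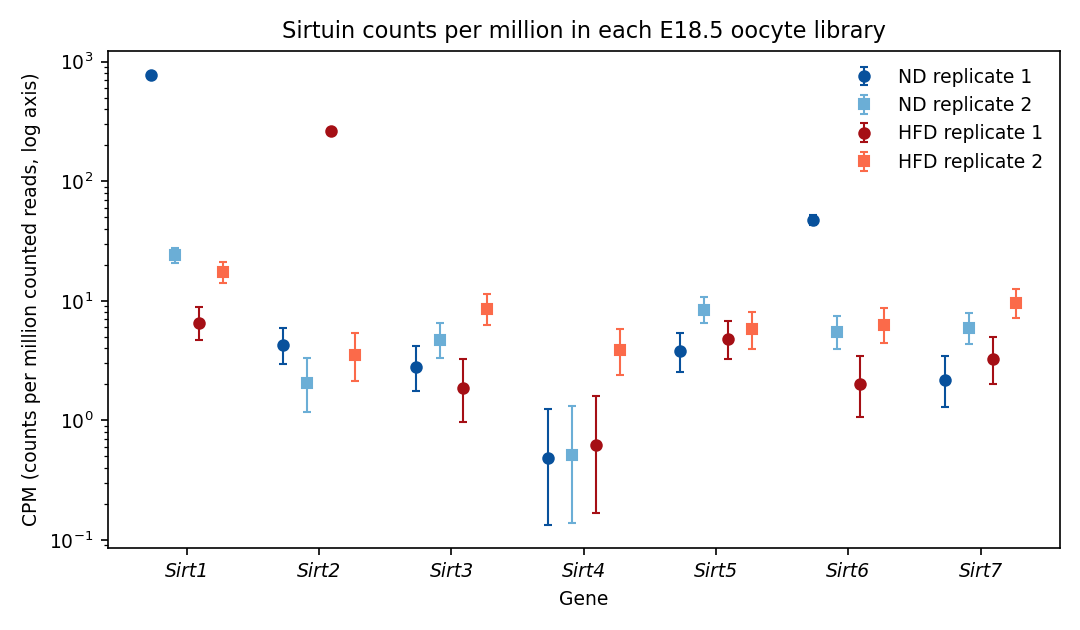
CPM of the 7 sirtuins in each library on a log axis, with exact 95% Poisson intervals that cover counting error only. Sirt1 and Sirt6 stand apart in ND replicate 1 (780 and 47.3 CPM) and Sirt2 in HFD replicate 1 (265 CPM), while the other values lie at or under 23.9 CPM.

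Few members stood above background. Sirt1 did so in 4 of 4 libraries, Sirt6 in 3 (ND replicates 1 and 2 and HFD replicate 2), Sirt2 in HFD replicate 1 alone and Sirt5 in ND replicate 2 alone. Sirt3, Sirt4 and Sirt7 did not pass the limit in any library, and Sirt7 in ND replicate 2 lay just under it, at 0.992 times the limit. Just above it were Sirt6 in HFD replicate 2, at 1.03 times, and Sirt1 in HFD replicate 1, at 1.06 times. Per library, 2, 3, 2 and 2 sirtuins were above background in ND replicates 1 and 2 and HFD replicates 1 and 2. Among 21897 protein-coding genes 57.3% were above background in no library and 3.36% in all 4, beside 3 and 1 of the 7 sirtuins.

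**Figure D2:**
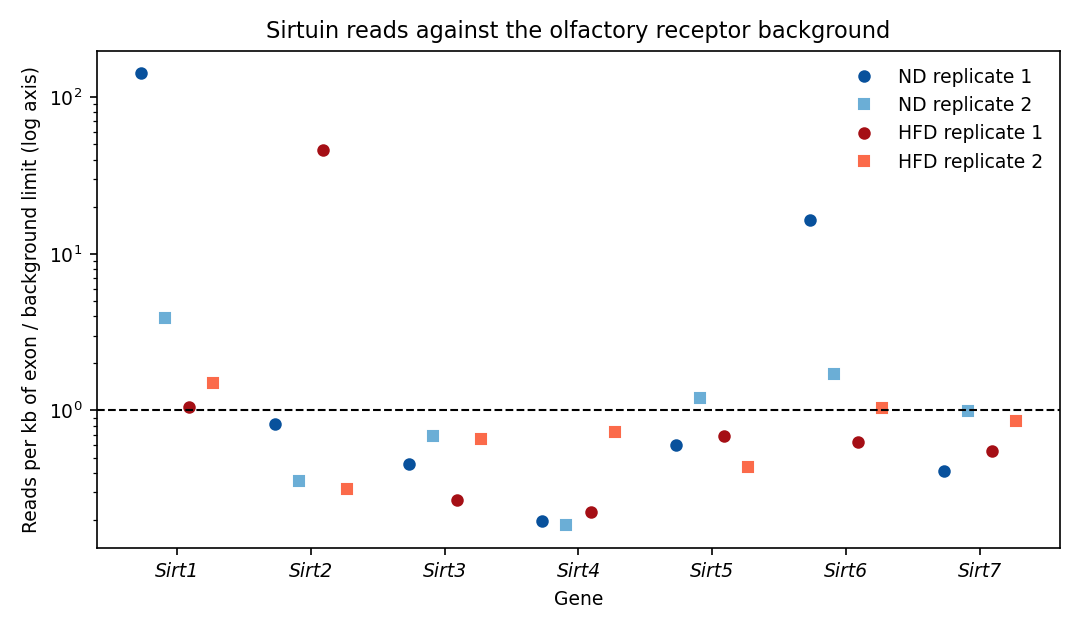
Reads per kilobase of exon of each sirtuin divided by the background limit of the same library, on a log axis, where the dashed line at 1 is the limit. Sirt1 lies above the line in all 4 libraries, between 1.06 and 142 times the limit, while Sirt3, Sirt4 and Sirt7 lie below it throughout.

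Ordered by the median level per length over the 4 libraries, as TPM, reads per exon length scaled to a common total, Sirt1 came first with 8.08 and Sirt6 second with 4.44. Sirt5 (1.99), Sirt7 (1.92), Sirt2 (1.67) and Sirt3 (1.30) followed closely, and Sirt4 was lowest with 0.534. The ranges of each pair of neighbours in this order overlapped over the libraries. Sirt1 exceeded Sirt6 in 4 of 4 libraries, and Sirt7 and Sirt2 each exceeded the next member in only 2.

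Between the diets, 0 of the 6 sirtuins tested passed edgeR's quasi-likelihood test with Benjamini-Hochberg adjustment over all genes (limits of 0.05 for the adjusted p and of 1.5 for the fold change), where 0% of 19335 genes passed. Sirt4 did not pass the filter on low counts and was not tested. Sirt6 alone had an unadjusted p under 0.05, which 11.3% of the genes had. With DESeq2 on all genes, Sirt1 and Sirt2 passed of the 4 members given an adjusted p, where 40.3% of 6251 such genes passed (21.6% higher in HFD, as Sirt2, and 18.7% lower, as Sirt1). The diets did not overlap in CPM for Sirt1 and Sirt4, which is 2 of 7 members, beside 27.7% of the protein-coding genes with a count. Of the genes tested, 13.9% were higher in HFD without overlap, as Sirt4 was, and 13.4% lower, as Sirt1 was. With the normalization factors of the fit (TMM) applied, Sirt6 did not overlap either, and no share over all genes was computed that way.

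Sirt1 (ENSMUSG00000020063, chr10:63319005-63381704 on GRCm38, minus strand), the nuclear deacetylase of p53, FOXO factors and histones, had the highest median level of the family. Its counts were 6415 and 187 in ND and 42 and 100 in HFD, or 780, 23.9, 6.50 and 17.5 CPM. ND replicate 1 was 32.6 times ND replicate 2, which lay near HFD replicate 2, and the HFD values were both below the ND values. The means were 402 ± 535 CPM in ND and 11.99 ± 7.75 CPM in HFD (SD, n = 2 each). On the log2 scale HFD over ND was −5.23 (SE 2.24), with an adjusted p of 0.405 in edgeR's quasi-likelihood test, and DESeq2 gave −5.25 with an adjusted p of 0.00179. Without ND replicate 1 the log2 fold change was −1.35 with an adjusted p of 0.403 in edgeR, and −1.37 with 0.518 in DESeq2. An antisense gene, Gm16145, shares 65 exonic bases with Sirt1 and had 4 to 9 counts per library.

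Sirt6 (ENSMUSG00000034748, chr10:81621785-81627797, minus strand), a chromatin-bound deacetylase of histone H3 that acts in DNA repair and at telomeres, was high in the same library as Sirt1. Its counts were 389 and 43 in ND and 13 and 36 in HFD, or 47.3, 5.50, 2.01 and 6.29 CPM. In CPM, HFD replicate 2 lay above ND replicate 2, so the diets overlapped, and only ND replicate 1 stood apart. With TMM factors applied, the values were 46.4 and 5.85 in ND and 2.91 and 4.18 in HFD, so the diets did not overlap. The means were 26.4 ± 29.6 CPM in ND and 4.15 ± 3.02 CPM in HFD (SD, n = 2 each). On the log2 scale the fold change was −2.87 (SE 1.16), with an unadjusted p of 0.0488 and an adjusted p of 0.405 in edgeR's quasi-likelihood test. DESeq2 gave −2.90 with an adjusted p of 0.0790 on all genes, and −2.85 with 0.0348 on the genes that edgeR tested. Without ND replicate 1 the value was −0.80 in edgeR.

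In ND replicate 1, in which Sirt1 and Sirt6 were high, blood and some stroma markers were high as well. There 3 of the 6 blood markers were above background, led by the globin genes Hbb-bs with 7350 counts and Hba-a1 with 5879 counts. In the other libraries these globin genes had 0 to 3 counts. Of the 9 stroma markers 6 were above background in ND replicate 1, but so were 6 in HFD replicate 2. Their summed CPM was 2843 in ND replicate 1 and 7700 in HFD replicate 2. Lum and Dcn, 2 proteoglycans of connective tissue, had 4916 and 2656 counts in ND replicate 1 against 6 to 36 elsewhere. Col1a1, Col3a1, Postn, Pdgfra, Nr2f2 and Tcf21 were highest in HFD replicate 2, and Col1a2 in HFD replicate 1. The part of blood and stroma RNA in the Sirt1 and Sirt6 values was not tested.

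Sirt7 (ENSMUSG00000025138, chr11:120618372-120625240, minus strand), the nucleolar member that acts on ribosomal gene transcription, stayed under the background limit. It had 18 and 46 counts in ND and 21 and 55 counts in HFD, or 2.19, 5.89, 3.25 and 9.61 CPM. The second replicate of each diet was the higher one and the diets overlapped. Its log2 fold change was 0.40 (SE 0.65), with an adjusted p of 0.870 in edgeR's quasi-likelihood test, and it turned to −0.25 without ND replicate 1. Sirt7 shares 124 exonic bases on the same strand with Mafg, a small Maf transcription factor gene with 31 to 48 counts per library, and reads there cannot be assigned to 1 of them by position.

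Sirt2 (ENSMUSG00000015149, chr7:28766735-28788661, plus strand), the cytoplasmic deacetylase of tubulin and of mitotic checkpoint proteins, was under the background limit in all libraries but one. Its counts were 35 and 16 in ND and 1712 and 20 in HFD, or 4.26, 2.05, 265 and 3.49 CPM. HFD replicate 1 was 62.3 times the next library, while HFD replicate 2 fell between the ND values, so the diets overlapped. The means were 3.15 ± 1.56 CPM in ND and 134 ± 185 CPM in HFD (SD, n = 2 each). On the log2 scale the fold change was 5.90 (SE 2.51), with an adjusted p of 0.405 in edgeR's quasi-likelihood test, and DESeq2 gave 5.86 with an adjusted p of 0.00193. Without HFD replicate 1 the direction turned, to −0.56 with an adjusted p of 0.722 in edgeR and to −0.51 in DESeq2, which gave no adjusted p there. The study selected Sirt2 among its changed genes on these same libraries, so its direction here is not independent evidence.

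In HFD replicate 1, which carried Sirt2, 1 endothelial marker of 6 was high. Kdr, a receptor of vascular endothelial growth factor, had 4398 counts there against 28 to 67 elsewhere. Pecam1 had 64 counts there and was highest in ND replicate 2, at 421 counts. Cdh5, Tek, Emcn and Flt1 had 10 to 20 counts in HFD replicate 1 and 10 to 57 elsewhere. Of the 9 stroma markers 3 were above background in HFD replicate 1, and the pregranulosa markers were all at or under the limit. Among the germ cell markers, Mael and Figla had 1520 and 3943 counts in HFD replicate 1 and 8 to 296 elsewhere. Dppa3, Sycp3, Sycp1 and Kit were also highest there, and Ddx4, Dazl, Stra8, Tex101, Dnd1 and Nanos3 in another library. The part of any cell type in the Sirt2 value was not tested. The genes next to Sirt2 were low in HFD replicate 1, with 6 counts of Nfkbib, which shares 42 exonic bases with Sirt2, and 15 counts of Rinl on its right side.

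Sirt3 (ENSMUSG00000025486, chr7:140863666-140882309, minus strand), the main mitochondrial deacetylase, did not exceed background in any library. Its counts were 23 and 37 in ND and 12 and 49 in HFD, or 2.80, 4.73, 1.86 and 8.56 CPM. The HFD libraries held both the lowest and the highest value. The log2 fold change was 0.11 (SE 0.59), with an adjusted p of 0.972 in edgeR's quasi-likelihood test, and it was −0.35 without ND replicate 1 and −0.53 without HFD replicate 2. The exons of Sirt3 overlap those of Ric8a by 418 bases and those of Psmd13 by 342 bases, both on the opposite strand. Psmd13, a proteasome subunit gene, had 398 counts in HFD replicate 1, the library in which Sirt3 was lowest, and 11 to 21 counts elsewhere. Whether the counting used strand is not given in the sources used here, so reads from those overlaps cannot be told apart.

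Sirt4 (ENSMUSG00000029524, chr5:115478010-115484725, minus strand), a mitochondrial member known to inhibit glutamate dehydrogenase, was the least abundant. Its counts were 4 and 4 in ND and 4 and 22 in HFD, or 0.486, 0.512, 0.620 and 3.84 CPM. The HFD values both lay above the ND values, but the exact 95% Poisson interval of HFD replicate 1, 0.169 to 1.59 CPM, held both ND values. That of HFD replicate 2, 2.41 to 5.82 CPM, lay above the ND intervals, whose upper ends were 1.25 and 1.31 CPM. HFD replicate 2 thus stood apart by more than these counting intervals, and in CPM the 2 HFD libraries differed 6.20 times. With TMM factors applied, the HFD values lay closer together, at 0.895 and 2.55. Without the filter on low counts the log2 fold change was 1.65, with an adjusted p of 0.596 in edgeR's quasi-likelihood test.

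Sirt5 (ENSMUSG00000054021, chr13:43365496-43395203, plus strand), the mitochondrial enzyme that removes succinyl and malonyl groups, had the lowest share of CPM in its highest library. Its counts were 31 and 66 in ND and 31 and 33 in HFD, or 3.77, 8.45, 4.80 and 5.77 CPM. With TMM factors applied, its values were 3.70 and 8.98 in ND and 6.94 and 3.83 in HFD. Those of Sirt7 were then 2.15 and 6.26 in ND and 4.70 and 6.38 in HFD, so that ranking depended on the normalization. Both HFD values fell between the ND values. The means were 6.11 ± 3.31 CPM in ND and 5.28 ± 0.682 CPM in HFD (SD, n = 2 each), and the log2 fold change was −0.24 (SE 0.65) with an adjusted p of 0.934 in edgeR's quasi-likelihood test. It turned to 0.50 without ND replicate 2 and to 0.13 without HFD replicate 2. Of the genes next to the sirtuins, Nol7, Herc4 and Bet1l had the highest counts in a single library. Nol7, to the right of Sirt5, had 26531 in ND replicate 2, where Sirt5 was highest, and 8 to 49 elsewhere. Herc4, next to Sirt1, had 1066 in HFD replicate 1, where Sirt1 was lowest, and Bet1l, next to Sirt3, had 5234 in ND replicate 2 and 2220 in HFD replicate 1, where Sirt3 was lowest.

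**Figure D3:**
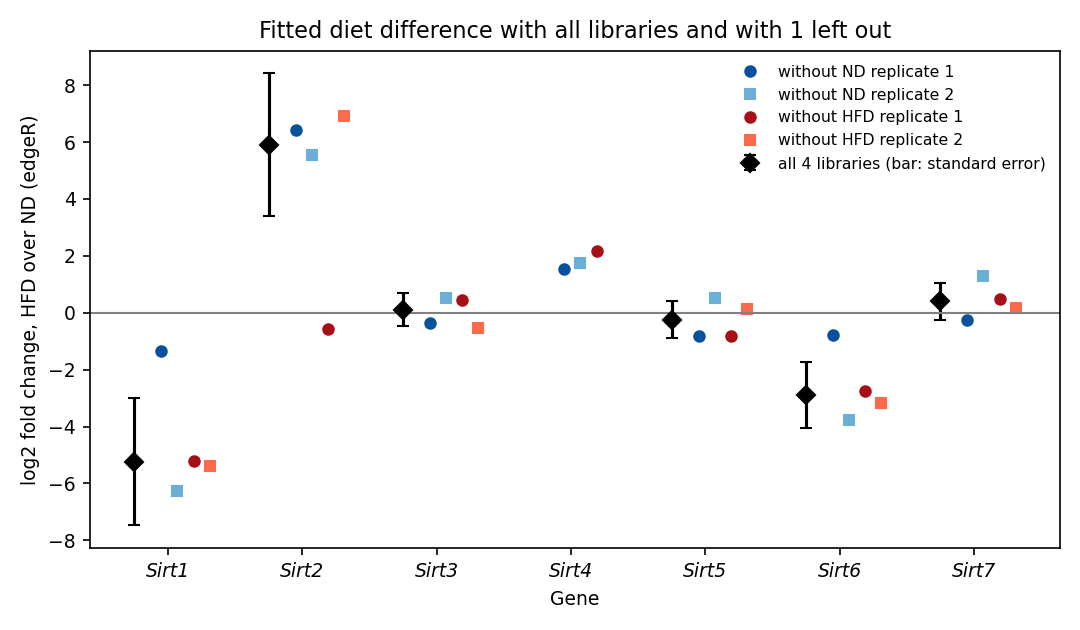
The log2 fold change of HFD over ND from edgeR for each sirtuin, with all 4 libraries (black, bar one standard error) and without each library by turns (coloured). Sirt1 shrinks from −5.23 to −1.35 and Sirt6 from −2.87 to −0.80 without ND replicate 1, and Sirt2 turns from 5.90 to −0.56 without HFD replicate 1. Sirt4 passed the filter on low counts only in 3 of the fits that leave out a library.

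How far 1 library carried a gene was measured as the share of the highest library in the summed CPM of the 4 libraries. TMM factors were not applied to this CPM. It was 96.4% for Sirt2, 94.2% for Sirt1, 77.4% for Sirt6 and 70.4% for Sirt4. The other members were more even, with 47.7% for Sirt3, 45.9% for Sirt7 and 37.1% for Sirt5. Over the 19335 genes tested the median was 45.4% (quartiles 38.0% and 57.8%). Sirt2 lay at the 94.8th percentile of those genes and Sirt1 at the 92.8th, counted from the lowest share.

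**Figure D4:**
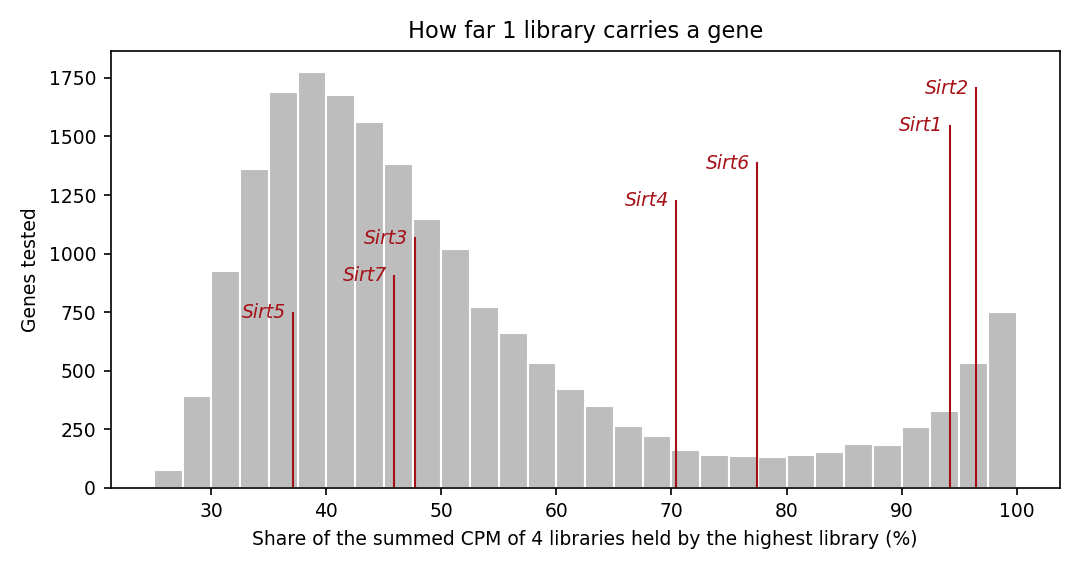
Histogram of the share of the summed CPM that the highest library holds, over 19335 genes tested, with the sirtuins as vertical lines whose heights carry no value. Sirt1 (94.2%) and Sirt2 (96.4%) lie in the small upper peak of genes read almost wholly from 1 library, and Sirt3, Sirt5 and Sirt7 lie in the main body around the median of 45.4%.

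For the 4 sirtuins above background in at least 1 library, the protein-coding gene with the most similar log2 CPM over the 4 libraries was sought among 15805 genes. S100pbp was nearest to Sirt1, with a root mean square difference of 0.383 and 6639, 285, 40 and 72 counts. Kctd9 was nearest to Sirt2, with a difference of 0.204 and 27, 17, 1795 and 23 counts. For Sirt6 it was Tex9 (0.240, with 390, 41, 10 and 28 counts) and for Sirt5 it was Fyco1 (0.154, with 38, 67, 32 and 30 counts). These genes were chosen for their likeness over the same libraries, and nothing more is read from it.

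The family's cosubstrate NAD+ is made and recycled by the products of 21 genes listed here. Of these 13 were above background in no library, near the 57.3% of all protein-coding genes. Tests covered 19 of them, and 0 passed edgeR's test. DESeq2 on all genes called 0 of the 2 given an adjusted p, where 40.3% of such genes passed. Nampt, the rate-limiting enzyme of NAD+ salvage, had 24 and 38 counts in ND and 15 and 8 counts in HFD. Both HFD values lay below the ND values, and Nampt was above background in 0 libraries. Its log2 fold change was −0.91 (SE 0.76), with an adjusted p of 0.661 in edgeR's quasi-likelihood test. Without overlap, 6 of the 21 genes were lower in HFD and 2 higher, beside 13.4% and 13.9% of the genes tested. Of the list, 2 genes were lower and 1 higher at an unadjusted p under 0.05, where 6.41% and 4.9% of all genes were. Those were Nnmt, which methylates nicotinamide (13 and 21 counts in ND, 0 and 1 in HFD), Haao of the pathway from tryptophan (31 and 53 against 9 and 20) and Acmsd, which diverts that pathway (7 and 11 against 15 and 21). These genes were named because their diets did not overlap at an unadjusted p under 0.05, so their differences are not a separate result. Nnmt and Haao were above background in 1 library each and Acmsd in 0, and both HFD counts of Nnmt lay under the floor of 3 counts. The median log2 fold change of the tested genes was −0.08, beside 0.03 over all genes tested.

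Of 8 other enzymes that consume NAD+, 7 were tested and 0 passed edgeR's test, and 1 was higher at an unadjusted p under 0.05, where 4.9% of all genes were. DESeq2 on all genes called 3 of the 4 given an adjusted p, all higher in HFD, where 21.6% of such genes were. Tnks, the tankyrase that adds ADP-ribose chains at telomeres and on the spindle, had 63 and 34 counts in ND and 974 and 1318 counts in HFD. Unlike Sirt1 and Sirt2, it was high in both libraries of a diet. Tnks was named because its diets did not overlap at an unadjusted p under 0.05. Without overlap, 2 of the 8 enzymes were higher in HFD and 1 lower, beside 13.9% and 13.4% of the genes tested. Its log2 fold change was 4.93 (SE 1.44), with an unadjusted p of 0.0156 and an adjusted p of 0.405 in edgeR's quasi-likelihood test, and DESeq2 gave an adjusted p of 0.000359. The median of the list was 0.07.

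The 11 zinc-dependent deacetylases, which remove acetyl groups without NAD+, were all tested. None passed edgeR's test, and 1 was higher at an unadjusted p under 0.05, beside 4.9% of all genes. DESeq2 on all genes called 2 of the 7 given an adjusted p, both higher in HFD, beside 21.6% of such genes. The first was Hdac8, a deacetylase of cohesin, with 20 and 19 counts in ND and 379 and 25 in HFD. Hdac8 was named because its diets did not overlap at an unadjusted p under 0.05. As with Sirt2, HFD replicate 1 held the high value, 86.4% of the summed CPM. Without overlap, 4 of the 11 deacetylases were higher in HFD and 0 lower, beside 13.9% and 13.4% of the genes tested. The median log2 fold change of the list was 0.58, beside 0.03 over all genes tested.

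Of 29 substrates and regulators of sirtuins, 29 were tested and 0 passed edgeR's test. At an unadjusted p under 0.05, 6 were lower in HFD and 0 higher, beside 6.41% and 4.9% of all genes. DESeq2 on all genes called 3 lower and 3 higher of the 16 given an adjusted p, near the 40.3% of all such genes. Foxo1, a transcription factor that Sirt1 and Sirt2 deacetylate, had 59 and 50 counts in ND and 10 and 25 in HFD, with a log2 fold change of −1.42 (SE 0.41). Acadl, a mitochondrial fatty acid dehydrogenase and substrate of Sirt3, had 33 and 28 against 8 and 13 counts (−1.22, SE 0.34), and Fzr1, an activator of the anaphase-promoting complex, had 97 and 36 against 10 and 24 (−1.70, SE 0.59). Foxo1 was above background in 0 libraries, Fzr1 in 1 and Acadl in 2. These 3 genes were named because their diets did not overlap at an unadjusted p under 0.05, so their lower HFD values are not a separate result. Without overlap, 5 of the 29 genes were lower in HFD and 2 higher, beside 13.4% and 13.9% of the genes tested. Each of the 3 had an adjusted p of 0.405 in edgeR's quasi-likelihood test.

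In that list, Rps19bp1 and Idh2 were carried by 1 library, as Sirt1 and Sirt2 were. Rps19bp1, whose product binds and activates Sirt1, had 16672 counts in ND replicate 2 and 8 to 19 elsewhere. Xrcc6, the DNA repair protein Ku70, had 106 and 609 counts in ND and 15 and 29 in HFD. Its highest library held 79.3% of the summed CPM, and both ND values lay above both HFD values. The log2 fold change of Xrcc6 was −3.82 (SE 1.23), with an adjusted p of 0.405 in edgeR's quasi-likelihood test and of 0.0113 in DESeq2. Rps19bp1 and Xrcc6 were named because their diets did not overlap at an unadjusted p under 0.05. Idh2, a mitochondrial isocitrate dehydrogenase that Sirt3 deacetylates, was above background in all 4 libraries, with 742 and 42 counts in ND and 9273 and 51 in HFD. Its log2 fold change was 4.45 (SE 3.10), with an adjusted p of 0.586 in edgeR's quasi-likelihood test, and the diets overlapped. The median log2 fold change of the list was 0.18.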

How the data were processed

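RNA was measured in 2 ND and 2 HFD samples of pooled E18.5 fetal oocytes. The deposited values are raw counts per gene, which the authors made with featureCounts from HISAT2 alignments to mm10 of reads that Trim Galore had trimmed. The annotation release, the strand setting and the handling of reads with several alignments are not given in the sources used here. GENCODE M21, which is built on the same assembly (GRCm38), named 55141 of 55401 identifiers, and its merged exons gave gene lengths.

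CPM is the count over the library's total, and TPM the same per exon length. The diets were compared in R 4.3.3 with edgeR 4.0.16 (filterByExpr, TMM, quasi-likelihood test, Benjamini-Hochberg over 19335 genes), at an adjusted p under 0.05 and a fold change over 1.5. SE is the absolute log2 fold change divided by √F. TMM factors were 1.02 and 0.940 for ND and 0.692 and 1.51 for HFD. A gene was above background if it exceeded both the olfactory receptor limit and 3 counts. Alternatives were other normalizations and filters, edgeR's legacy fit, limma 3.58.1 (voom), DESeq2 1.42.0, a replicate block and each library left out. The functions were tested on simulated data. Without molecular identifiers, intervals and floors cover counting error alone.

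Members, lists, background measure and tests were chosen with earlier results of these data known. Named genes are the sirtuins, the genes overlapping or next to them, the most similar gene of each sirtuin above background, and up to 6 genes per list that had an unadjusted p under 0.05 with diets that do not overlap or were above background in all 4 libraries. Nampt was named after its values were seen. Bisulfite sequencing, imaging and time-restricted feeding were not analysed here.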

Additional observations from a re-analysis of the deposited data

How the results depend on the processing

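Normalization by RLE or library size only, other count filters, limma-voom and edgeR's legacy fit kept the direction of each sirtuin they tested and called none. Over all genes, edgeR called 0, its legacy fit 34 and limma-voom 0. DESeq2 on all genes called 2518 of the 6251 given an adjusted p (40.3%). A separate DESeq2 fit on the 19335 genes edgeR tested called 2102. In edgeR, an unadjusted p under 0.05 was reached by 2186 genes. The sirtuins called depended on the tool. DESeq2 on all genes called Sirt1 (−5.25) and Sirt2 (5.86), and on the genes edgeR tested it called Sirt1 (−5.19), Sirt2 (5.96) and Sirt6 (−2.85). With 1 library left out, its diet rests on a lone sample that is assumed to vary like the other diet. In such DESeq2 fits, chosen after seeing the data, Sirt1 ranged from −6.22 to −1.37 (called at −6.22, −5.13 and −5.45, not without ND replicate 1) and Sirt2 from −0.51 to 6.83 (called at 6.35, 5.48 and 6.83, reversed without HFD replicate 1). In edgeR with 1 library left out, the ranges were −6.25 to −1.35 for Sirt1, −0.56 to 6.91 for Sirt2, −0.53 to 0.52 for Sirt3, 1.55 to 2.18 for Sirt4, −0.83 to 0.50 for Sirt5, −3.77 to −0.80 for Sirt6 and −0.25 to 1.29 for Sirt7, and 0 genes were called in each. Sirt3 reversed without ND replicate 1 (−0.35 with both tools) and without HFD replicate 2 (−0.53, DESeq2 −0.64). Sirt5 reversed without ND replicate 2 (0.50 with both tools) and without HFD replicate 2 (0.13, DESeq2 0.016), and Sirt7 without ND replicate 1 (−0.25, DESeq2 −0.26). The cause of these changes was not tested beyond the library left out. Of the 8 other NAD+-consuming enzymes, DESeq2 called 3 on all genes and 3 on the genes edgeR tested. The same fits called 2 and 1 of the 11 zinc-dependent deacetylases, and 6 and 4 of the 29 substrates and regulators. In the fit on all genes, 4, 7 and 16 genes of these lists were given an adjusted p. The background limit moved the count of sirtuins above it, to 5 in ND replicate 2 and 4 in HFD replicate 2 at the 95th percentile, and to 1 in HFD replicate 1 and 0 in HFD replicate 2 at the highest olfactory receptor gene. Samples with the same replicate number did not deviate together (r = 0.0110 over 19335 genes), so the numbers were not shown to pair the samples. With a replicate block, edgeR called 0 genes and DESeq2 869 of 49005 with a count, not all of which were given an adjusted p. Among those called were 1 of the 8 NAD+-consuming enzymes, 2 of the 29 substrates and regulators and 0 of the 7 sirtuins. The block gave Sirt1 −3.73 and Sirt2 3.33 in edgeR.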

Other observations

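Other genes of the NAD+ lists were also read mostly from 1 library. These were picked after their values were seen and are given as values. Parp1, the main poly(ADP-ribose) polymerase of the DNA damage response, had 60 and 70 counts in ND and 32 and 7761 counts in HFD. Sarm1, a neuronal NAD+ hydrolase, had 25 and 28 counts in ND and 6884 and 22 counts in HFD. Slc25a51, the mitochondrial NAD+ carrier, had 750 and 37 counts in ND and 9 and 6844 counts in HFD. The libraries that held these high values were HFD replicate 2 for Parp1 and Slc25a51 and HFD replicate 1 for Sarm1. Glud1, the glutamate dehydrogenase that Sirt4 is known to inhibit, had 1624 and 37 counts in ND and 296 and 40 in HFD, so that its highest library was ND replicate 1, as for Sirt1 and Sirt6.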
